A study of Mus musculus with 12 samples.

Results

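The orosomucoid genes Orm1, Orm2 and Orm3 encode alpha-1-acid glycoprotein, an abundant plasma protein made by the liver, and are described here in the livers of control mice and of mice with severe acute pancreatitis (SAP). They were taken by symbol, which gave 3 of the 55367 distinct gene symbols in the table, and all 3 were among the 11335 genes tested. Every mouse was a wild type Balb/c animal aged 6 weeks. The 6 control livers are labelled as controls with no agent named. The 6 SAP livers came from mice given caerulein, a peptide that drives pancreatic secretion to excess and inflames the gland; neither dose nor time of sampling appears in the labels. The series design speaks of a pair of mouse models, and the labels do not say whether the SAP group holds 1 model or both. The study set out to compare the liver transcriptome of these 2 groups.

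Orosomucoid belongs to the lipocalins, small barrel-shaped proteins that carry lipids and drugs, and it binds basic and neutral drugs in plasma. It is a heavily sialylated N-glycoprotein and a classic positive acute-phase protein: hepatocytes raise its transcription in response to interleukin-6, interleukin-1 and glucocorticoids, through STAT3, NF-kB, C/EBP factors and the glucocorticoid receptor. In the mouse the genes arose by tandem duplication, and their products are close relatives.

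In GENCODE M21 on GRCm38 the genes lie head to tail on the plus strand of chromosome 4, within 21319 bases. Orm1 (ENSMUSG00000039196.2) spans 63344560 to 63348163, Orm3 (ENSMUSG00000028359.4) spans 63356162 to 63359511, and Orm2 (ENSMUSG00000061540.3) spans 63362449 to 63365878. The unprocessed pseudogene Gm11212 (63350411 to 63353846) sits between Orm1 and Orm3. Each gene has 6 exons and 1 annotated transcript, of 775 bases for Orm1 and Orm2 and 773 for Orm3, and the coding sequences hold 207, 207 and 206 codons before the stop.

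**Figure D1:**
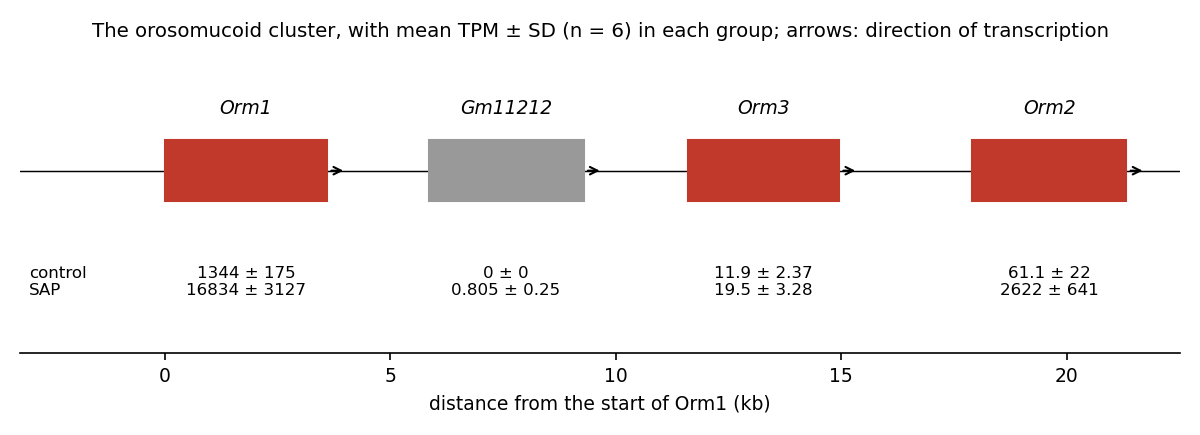
Order and size of the orosomucoid genes (red) and the pseudogene Gm11212 (grey) along the chromosome, in kb from the start of Orm1, with the mean TPM ± SD over 6 libraries of each group printed below. Orm1 has the highest level in both groups, and Gm11212 is listed at 0 in all 6 controls.

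The copies differ in sequence, which bears on how well their reads can be told apart. Coding sequences of Orm1 and Orm2 were 89.9% identical, those of Orm2 and Orm3 88.0%, and those of Orm1 and Orm3 86.1%. The second exon, which is wholly coding, is shown for each gene because it shows where the copies part (GRCm38, chromosome 4, plus strand: 63345069 to 63345211 in Orm1, 63362944 to 63363086 in Orm2, 63356571 to 63356713 in Orm3). Capitals mark bases that differ from Orm1.
Orm1: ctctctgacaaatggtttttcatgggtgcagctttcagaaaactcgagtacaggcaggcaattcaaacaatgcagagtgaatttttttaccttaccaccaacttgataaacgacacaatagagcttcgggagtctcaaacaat
Orm2: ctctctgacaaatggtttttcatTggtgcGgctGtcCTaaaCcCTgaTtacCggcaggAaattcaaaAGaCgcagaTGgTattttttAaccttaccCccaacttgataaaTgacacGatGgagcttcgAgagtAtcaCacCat
Orm3: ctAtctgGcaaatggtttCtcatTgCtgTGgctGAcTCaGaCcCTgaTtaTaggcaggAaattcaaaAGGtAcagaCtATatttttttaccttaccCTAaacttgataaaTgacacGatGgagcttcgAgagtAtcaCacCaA
In this exon of 143 bases Orm2 differed from Orm1 at 26 positions and Orm3 at 36. Over whole transcripts the longest identical run was 141 bases for Orm1 and Orm2, 75 for Orm2 and Orm3, and 65 for Orm1 and Orm3. Of all windows of 100 bases, 93.0% of those in Orm1, 93.0% of those in Orm2 and 100% of those in Orm3 occurred in no other gene's transcript. With windows of 50 bases the shares were 79.6%, 77.3% and 96.4%. These sequences are of the C57BL/6J reference strain, and the labels give neither the read length nor how reads that fit several copies were handled.

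Values were read as TPM, transcripts scaled for length and to a fixed library total, so levels of different genes can be compared; the unit carries no sequencing depth, and no counting interval can be given. By limma on log2(TPM + 1), with a Benjamini-Hochberg adjusted p under 0.05, 19.5% of the 11335 genes were higher with SAP and 25.0% lower. Log2 changes below were taken from that fit as SAP less control, which understates changes of low genes, and a gene "rose" or "fell" where it passed that test. The labels do not say that each library came from a separate mouse, so the p-values speak only of the spread among these libraries. In bulk liver, fewer cells of a type and less RNA per cell cannot be told apart. Xist, an RNA of the inactive X chromosome, was under 30 TPM in 5 libraries (control 5 and SAP 11, 13, 14 and 15; 4.59 to 17.1 TPM) and 49.1 to 60.7 TPM in the other 7. The nuclear RNA Malat1 followed the same split (2.76 to 8.19 against 26.2 to 40.1 TPM), and values from the 7 libraries alone are given where a named gene's call changed or its log2 value moved by over 1.5 times.

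All 3 orosomucoid genes were higher in SAP, by very different amounts. Against a background of 19.5% of genes higher (44.5% changed in either direction), 3 of 3 passed the test. Against 2.55% of genes higher with a log2 change of at least 1, 2 of 3 were so. Against 10.5% of genes higher with no overlap between groups (25.6% in either direction), 3 of 3 had none. Orm2 had the largest change, Orm1 the largest gain in transcripts, and Orm3 a small change from a low level. In each of the 12 libraries the order of the levels was Orm1, then Orm2, then Orm3, and no 2 neighbours in that order overlapped within either group.

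Orm1 supplied most orosomucoid RNA in both groups. Controls 3 to 8 held 1537, 1276, 1345, 1044, 1378 and 1485 TPM, and SAP 10 to 15 held 17696, 16198, 12947, 16842, 22264 and 15060 TPM. The lowest SAP liver (SAP 12) was far above the highest control (control 3), and the range within each group was narrow beside the gap between them. The mean went from 1344 ± 175 to 16834 ± 3127 TPM (SD, n = 6 each), 12.5-fold, with a log2 change of 3.64 ± 0.13 (SE; 95% interval 3.37 to 3.91; limma adjusted p = 7.58e-10). By mean level Orm1 was in place 88 of the tested genes in controls and in place 9 in SAP, just above the mitochondrial transcript mt-Co1 and below the apolipoprotein gene Apoe.

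Orm2 went from a modest to an abundant transcript. Controls 3 to 8 held 78.6, 57.1, 34.4, 39.9, 65.1 and 91.3 TPM, and SAP 10 to 15 held 3075, 2835, 1719, 2666, 3413 and 2022 TPM. Control 5 was lowest and control 8 highest among the controls, while SAP 12 and SAP 15 were the low SAP livers; the groups did not overlap. The mean went from 61.1 ± 22.0 to 2622 ± 641 TPM (SD, n = 6 each), 42.9-fold, with a log2 change of 5.44 ± 0.24 (SE; 95% interval 4.93 to 5.95; limma adjusted p = 3.23e-09). This was place 7 by size among all tested genes, Orm1 being in place 13. Orm2 also had the larger spread between controls, a difference that was not tested: the SD of the log2 level was 0.54 for Orm2 and 0.20 for Orm1, beside a median of 0.15 over all tested genes, and in SAP it was 0.38 and 0.26 beside 0.22.

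Orm3 remained a minor transcript. Controls 3 to 8 held 12.0, 13.4, 7.38, 14.0, 12.9 and 12.0 TPM, and SAP 10 to 15 held 19.2, 20.2, 14.1, 24.3, 20.03 and 19.0 TPM. The groups did not overlap, but only narrowly so: SAP 12, at 14.06 TPM, lay just above control 6, at 14.01 TPM. The mean went from 11.9 ± 2.37 to 19.5 ± 3.28 TPM (SD, n = 6 each), 1.63-fold, with a log2 change of 0.67 ± 0.15 (SE; 95% interval 0.36 to 0.99; limma adjusted p = 0.00218). That gain of 7.54 TPM stood beside gains of 15490.5 TPM in Orm1 and 2561 TPM in Orm2. Of the 724 windows of 50 bases in Orm3, 26 also occur in Orm1 or Orm2. Whether reads of those genes were counted as Orm3 was not tested. Among the 7 libraries with Xist of at least 30 TPM, 5 control and 2 SAP, the log2 change was 0.34 ± 0.13 (SE), which did not pass the test (limma adjusted p = 0.0718), whereas Orm1 (3.51) and Orm2 (5.15) passed it there. The other libraries hold 4 SAP livers at 19.0 to 24.3 TPM and control 5 alone at 7.38 TPM. With the Xist split as a term in the fit of all 12 libraries, the Orm3 change was 0.71 ± 0.17 (SE; limma adjusted p = 0.00639). Control 5 was the only control of low Xist in that fit, and the cause of the split was not tested.

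The pseudogene Gm11212, singled out after its values were seen, was listed at 0 in all 6 controls and at 0.51 to 1.21 TPM in the 6 SAP livers. It was too low to be tested. Of the 726 windows of 50 bases in Orm2, 7 also occur in Gm11212, and none of 100 bases does.

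**Figure D2:**
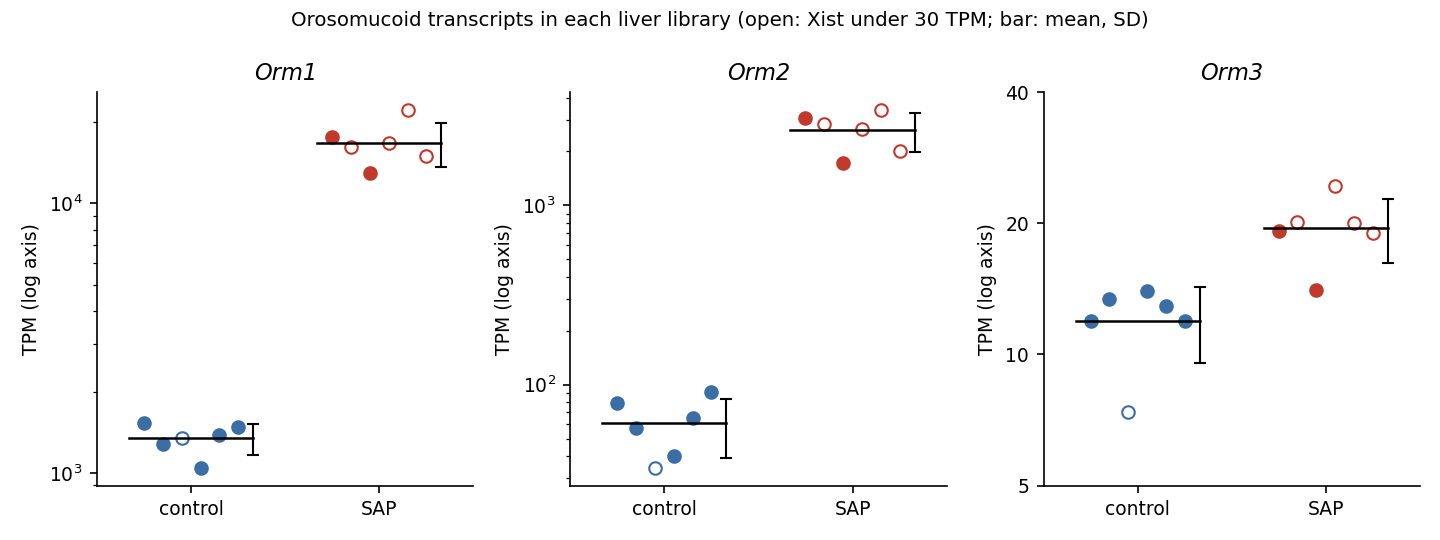
TPM of each orosomucoid gene (log axis) in 6 control (blue) and 6 SAP (red) libraries, with the mean and SD as black lines and libraries with Xist under 30 TPM drawn open. Orm1 and Orm2 sit far apart between the groups, while the lowest SAP value of Orm3 (14.06) nearly meets the highest control value (14.01).

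Summed over the family, a measure that depends little on how reads were divided among copies of nearly equal length, orosomucoid RNA made up 0.142 ± 0.0193% of all TPM in control livers and 1.96 ± 0.374% in SAP livers (SD, n = 6 each). The sum went from 1417 ± 191 to 19476 ± 3721 TPM, 13.7-fold. Orm1 accounted for 85.8% of that gain, Orm2 for 14.2% and Orm3 for 0.0418%. The SAP livers ran from 1.48% (SAP 12) to 2.58% (SAP 14), and the same 2 livers held the lowest (19.0%) and the highest (32.2%) share of TPM in a list of 24 other acute-phase genes. Set against albumin, the other main drug carrier of plasma, the sum was 2.19 ± 0.308% of Alb TPM in the control group and 73.5 ± 25.9% in the SAP group (SD, n = 6 each). Alb fell from 65029 ± 4415 to 27673 ± 4277 TPM (limma adjusted p = 1.67e-06). In 1 of the 12 libraries, SAP 14, orosomucoid transcripts outnumbered those of Alb, at 117% of the Alb level, and the lowest SAP value was 49.4% in SAP 12.

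The make-up of the family shifted toward Orm2. Orm2 supplied 2.48 to 5.75% of orosomucoid TPM in controls and 11.7 to 14.9% in SAP. Orm1 supplied 93.5 to 97.0% and 85.0 to 88.2%, and Orm3 0.532 to 1.28% and 0.0779 to 0.124%. For every 100 Orm1 transcripts there were 4.48 ± 1.21 of Orm2 in control livers and 15.5 ± 1.84 in SAP livers (SD, n = 6 each). The log2 change of Orm2 exceeded that of Orm1 by 1.81 ± 0.19 (SE), the difference of Orm3 from Orm1 was -2.97 ± 0.19, and that of Orm3 from Orm2 was -4.77 ± 0.23. Each of these 3 pair differences had p = 0.00216 in an exact two-sided permutation test of the library labels, the smallest this design can give, and an adjusted p of 0.00216 over the 3 pairs. In each pair the 6 SAP ratios lay outside the range of the 6 control ratios. Within the 7 libraries with Xist of at least 30 TPM the first 2 differences were 1.64 and -3.17, and all 3 stood at the smallest p the exact test allows there (adjusted p = 0.0476).

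**Figure D3:**
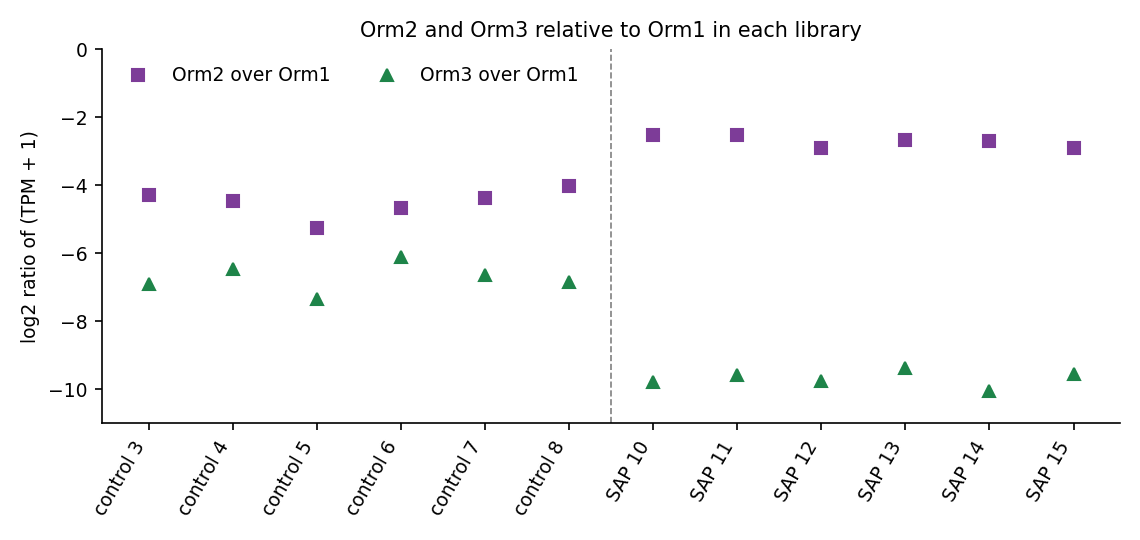
Log2 ratio of Orm2 (squares) and Orm3 (triangles) to Orm1, each as TPM + 1, in the 6 control and 6 SAP libraries, separated by the dashed line. Orm2 moves up toward Orm1, from between -5.25 and -4.01 to between -2.91 and -2.51, while Orm3 moves away from it, from between -7.33 and -6.12 to between -10.05 and -9.38.

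Livers with more Orm1 tended to have more Orm2 within the SAP group, where Pearson's r passed the threshold after adjustment and Spearman's rho did not. Over the 6 SAP libraries Pearson's r of their log2 levels was 0.92 (exact permutation p = 0.00694; adjusted p = 0.0417 over the 6 relations computed) and Spearman's rho was 0.94 (exact permutation p = 0.0167, adjusted p = 0.10). Without SAP 12 and SAP 14, the livers farthest from the median, r was 0.91 over 4 libraries. Over the 6 controls r was 0.70 and rho 0.77 (exact permutation p = 0.103 for each; adjusted p = 0.296 and 0.308), and r was 0.63 without control 3 and control 6. The 4 relations of Orm3 with Orm1 or Orm2 did not pass, with r from -0.29 to 0.66 and adjusted p from 0.296 to 0.839 over r and rho (exact permutation). The Xist split leaves 2 and 4 SAP libraries, too few for a correlation within either. Levels within a library share its scaling, and Orm1 and Orm2 share stretches of sequence.

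The promoters of Orm2 and Orm3 are shown because these neighbours, alike in sequence, differed most in their change. RefSeq's promoter table for GRCm38.p6 held 2 of the 3 members, Orm2 and Orm3. The 250 bases before the annotated start are given, chromosome 4, plus strand, written as chr4:63362199-63362448 for Orm2 and chr4:63355908-63356157 for Orm3. Capitals mark matches to the motifs searched, on either strand.
Orm2: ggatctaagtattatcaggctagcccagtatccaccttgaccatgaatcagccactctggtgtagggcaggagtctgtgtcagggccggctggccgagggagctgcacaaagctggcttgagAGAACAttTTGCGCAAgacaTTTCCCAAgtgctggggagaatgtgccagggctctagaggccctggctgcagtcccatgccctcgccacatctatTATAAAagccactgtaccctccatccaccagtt
Orm3: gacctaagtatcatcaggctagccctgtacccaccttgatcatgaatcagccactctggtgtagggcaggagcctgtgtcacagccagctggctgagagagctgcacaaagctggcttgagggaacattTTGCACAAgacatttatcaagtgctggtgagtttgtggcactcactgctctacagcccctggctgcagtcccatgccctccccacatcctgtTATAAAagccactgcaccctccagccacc
The pair were 85.5% identical over 255 aligned columns. The C/EBP pattern TTNNGNAA matched in both, as TTGCGCAA at -120 to -113 from the start and TTTCCCAA at -108 to -101 in Orm2, and as TTGCACAA at -121 to -114 in Orm3. The glucocorticoid receptor half-site AGAACA matched at -128 to -123 in Orm2 and nowhere in Orm3. The TATA motif TATAAA, added after the promoters had been read, stood at -33 to -28 in Orm2 and -29 to -24 in Orm3, and no matches overlapped. The STAT pattern TTCNNNGAA and the NF-kB consensus had no match in either window. Of 32851 promoters of this length, 36.8% held the C/EBP pattern, 16.1% the half-site, 7.02% the STAT pattern, 45.8% the NF-kB consensus and 12.4% the TATA motif, so matches to the C/EBP pattern in particular are common. Matches describe letters only.

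Among acute-phase genes the 2 abundant members ranked high. Of the 24 other genes in the acute-phase list, chosen with results of these data known, 22 rose, 0 fell and 2 missed the threshold. The backgrounds were 19.5% of all tested genes higher and 25.0% lower. The median log2 change of the list was 2.38, beside -0.03 over all tested genes. By size of change Orm2 was in place 5 and Orm1 in place 6 of the 27 genes, after Saa3 (9.90), Saa2 (9.38), Saa1 and the siderophore-binding lipocalin Lcn2 (5.85) and before the metallothionein genes. Orm3 was in place 26, above Crp alone. The members took up 5.03 ± 0.692% of the TPM of the list and members together in control livers and 7.54 ± 0.247% in SAP livers (SD, n = 6 each). Other genes of the list with a small adjusted p were Itih4 (2.25), an inter-alpha-trypsin inhibitor chain, and Lrg1 (2.59), a leucine-rich glycoprotein of plasma.

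Genes with the most similar profiles were sought by the root mean square difference of log2(TPM + 1), each centred on its control mean, over the 12 libraries. The measure looks at size as well as shape. Genes near or under 1 TPM in controls, Nucb2 below among them, have compressed changes on this scale. A small difference from Orm1 or Orm2 there need not mean a like fold change in TPM. Closest to Orm1 was Nucb2, which encodes a calcium-binding secreted protein, at a difference of 0.10; it went from 1.49 ± 0.400 to 28.9 ± 5.11 TPM (SD, n = 6 each). Next were the metalloproteinase inhibitor gene Timp1 (0.29), the chitinase-like gene Chil1 (0.36), the serine protease gene Prtn3 (0.36) and the co-chaperone gene Dnajc12 (0.40). Mpo and Elane, other genes of neutrophil precursors, where Prtn3 is best known, reached at most 0.55 TPM in any library. Orm2 was closest to its fellow lipocalin Lcn2 (0.37), followed by the crystallin gene Crybb3 (0.46), the scavenger receptor gene Marco (0.87), the chemokine gene Cxcl13 (0.90) and Derl3 (0.94), a gene of endoplasmic reticulum protein degradation. Orm1 itself came in place 8 from Orm2, at 1.31. The profile of Orm3 was near those of Tesk1 (0.16), Gja4 (0.19), Adora1 (0.20), Cog8 (0.21) and Bcas3 (0.21), with log2 changes of 0.50 to 0.70. Timp1, Crybb3 and Cxcl13, with control means of 0.293, 0.367 and 0.318 TPM, passed the filter on low values through the SAP livers alone. These likenesses are descriptions, and the control libraries are shared by all profiles.

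Other lipocalins of the liver moved in both directions. Of 15 listed members of the superfamily 8 were tested, of which 2 rose, 5 fell and 1 missed the threshold, beside 19.5% of all tested genes higher and 25.0% lower. The 7 untested ones reached at most 0.41 TPM in any library; the median log2 change was -0.81. Lcn2 rose from 186 ± 72.4 to 10214 ± 1836 TPM (SD, n = 6 each; limma adjusted p = 2.32e-09). Ambp, which encodes the precursor of alpha-1-microglobulin and bikunin and lies upstream of Orm1 on the same chromosome, rose from 2705 ± 170 to 4149 ± 191 TPM, a log2 change of 0.62 (limma adjusted p = 4.63e-06). The retinol carrier gene Rbp4 fell by 1.03 on the log2 scale. Apom, an apolipoprotein gene whose product carries sphingosine phosphate, fell by 0.75, and the complement gene C8g fell by 1.02. Mup3 and Mup20, of the major urinary protein family, also fell, but they have close copies with which they may share reads. Of the summed mean TPM of these 18 genes, Rbp4 held 46.6% in controls and 7.55% in SAP, and Orm1 held 11.1% and 44.7%. Other major urinary protein genes were not listed, so these are not shares of all liver lipocalin RNA.

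**Figure D4:**
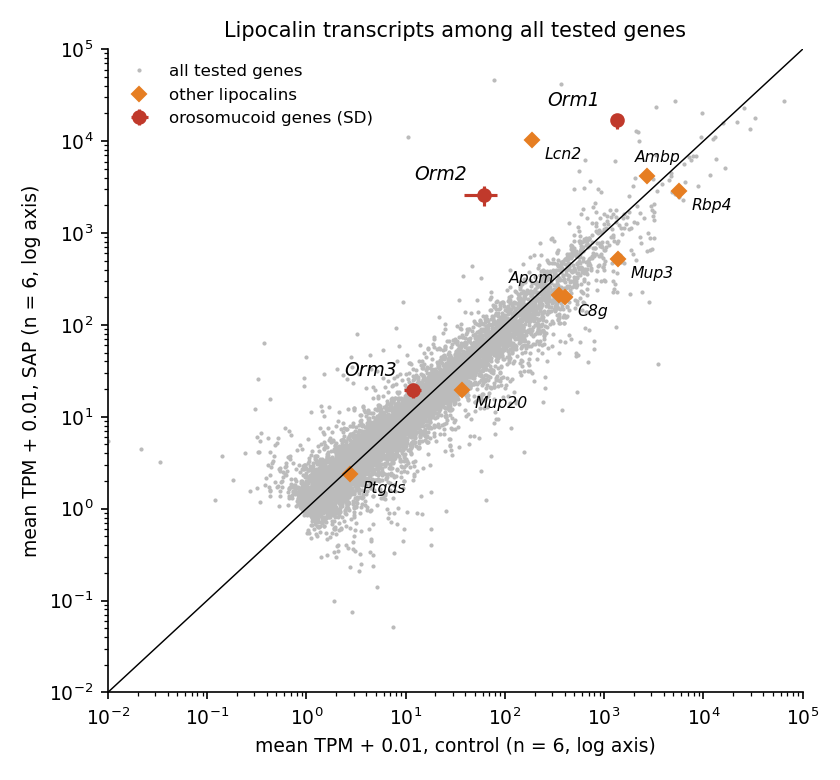
Mean TPM + 0.01 in control against SAP livers (log axes, n = 6 each) for all 11335 tested genes (grey), the 8 tested other lipocalins (orange) and the orosomucoid genes (red, SD as bars), with the line of equal levels. Orm1, Orm2 and Lcn2 lie far above the line and Orm3 just above it, while Rbp4, Mup3, Apom, C8g and Mup20 lie below.

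Genes of the signals known to drive orosomucoid transcription moved in both directions. Of 35 listed ligands, receptors, transducers and transcription factors 30 were tested; 13 rose, 5 fell and 12 missed the threshold, beside backgrounds of 19.5% higher and 25.0% lower, with a median log2 change of 0.19. Among those that rose, the oncostatin M receptor gene Osmr, was at most 0.74 TPM in controls and passed the filter on low values through the SAP livers alone. Among ligands, Il6 was listed at 0 in every library and Tnf at no more than 0.25 TPM, so neither was tested in this liver RNA. Il1b, the gene of interleukin-1 beta, rose from 1.11 ± 0.372 to 3.79 ± 1.53 TPM (SD, n = 6 each; limma adjusted p = 8.45e-04), although the groups overlapped between 1.48 and 1.53 TPM. Among receptors, the interleukin-1 receptor gene Il1r1 rose by 1.59, from 11.4 ± 2.47 to 37.3 ± 11.4 TPM, and Tnfrsf1a by 0.64. Il1rap, the accessory chain of the interleukin-1 receptor, fell by 0.89, from 63.0 ± 2.88 to 34.2 ± 7.35 TPM with no overlap (limma adjusted p = 9.07e-05; named after its values were seen). The shared signalling chain of the interleukin-6 family, Il6st, rose by 0.61 (19.4 ± 1.74 to 30.4 ± 5.70 TPM), whereas the interleukin-6 binding chain Il6ra fell by 0.54 (24.02 ± 4.91 to 16.4 ± 4.19 TPM; limma adjusted p = 0.0249), a call lost in 7 of 22 alternatives with adjusted p up to 0.147, the 7 libraries of high Xist among them (Il6ra -0.47, adjusted p = 0.0575).

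Downstream of the receptors, Stat3 rose by 0.66 (39.7 ± 3.11 to 63.7 ± 9.42 TPM) and its target and feedback inhibitor Socs3 by 3.43, from 2.01 ± 0.589 to 33.5 ± 13.5 TPM (SD, n = 6 each; limma adjusted p = 3.39e-07). Myd88, the adaptor of interleukin-1 and Toll-like receptors, rose by 0.93. Of the C/EBP genes, Cebpb fell by 0.69 (78.3 ± 27.0 to 47.6 ± 13.7 TPM; limma adjusted p = 0.0276), a call lost in 10 of 22 alternatives with adjusted p up to 0.139. Cebpa had a log2 difference of -0.33 (133 ± 24.5 and 107 ± 27.7 TPM) and Cebpd of 0.23 (2.01 ± 0.740 and 2.50 ± 0.660 TPM), neither past the threshold. Without SAP 12, whose Cebpa level stood above the other SAP livers, Cebpa passed it as lower (-0.46, limma adjusted p = 0.00744), and in the 7 libraries of high Xist its difference was -0.074 (limma adjusted p = 0.830). On the glucocorticoid side, the receptor gene Nr3c1 was at 9.54 ± 0.903 and 9.48 ± 1.77 TPM, with an interval for its log2 difference of -0.27 to 0.23; in the 7 libraries of high Xist the Nr3c1 difference was 0.14 (limma adjusted p = 0.394). The receptor's target Fkbp5 was at 72.8 ± 12.5 and 66.8 ± 17.4 TPM and not past the threshold (-0.14, limma adjusted p = 0.507), but in the 7 libraries of high Xist Fkbp5 passed it as lower (-0.42, limma adjusted p = 0.0485). Tsc22d3, another target of the receptor and named after its values were seen, fell by 1.29, from 119 ± 30.8 to 49.7 ± 18.4 TPM (limma adjusted p = 0.00118). Its groups missed overlapping only narrowly, with the lowest control at 72.0 TPM and the highest SAP liver at 70.59 TPM. Hsd11b1, which regenerates active glucocorticoid within hepatocytes, fell by 1.51, from 613 ± 23.6 to 221 ± 55.8 TPM (limma adjusted p = 5.72e-06). These are transcript levels, and the activity of the factors was not measured.

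**Figure D5:**
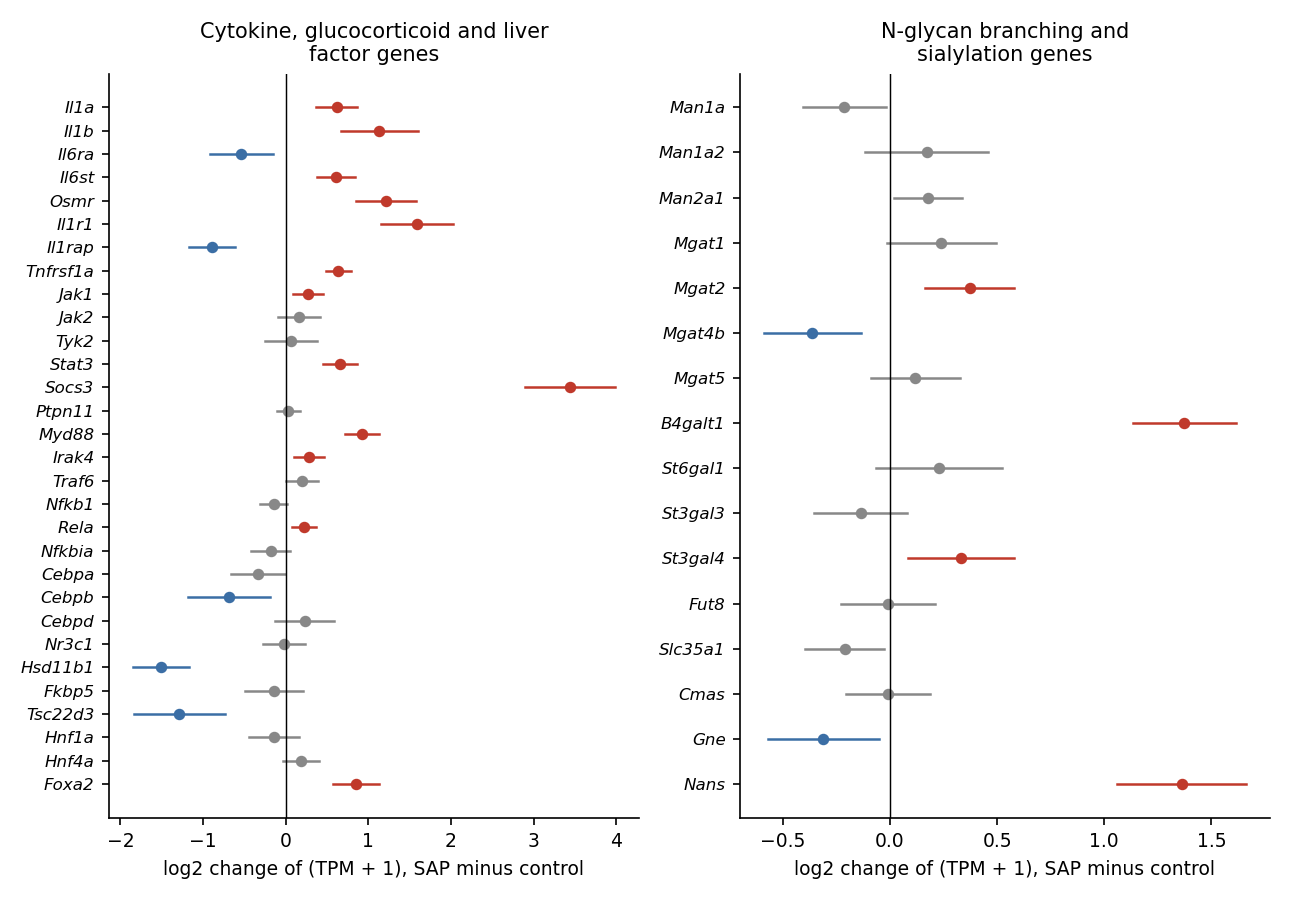
Log2 change with 95% interval (limma, log2(TPM + 1), SAP minus control) of the tested genes of the regulator list and of the N-glycan list; red rose, blue fell and grey was not past the threshold. Socs3 stands out at 3.43 in the regulator list, and B4galt1 (1.37) and Nans (1.36) in the N-glycan list.

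The genes that build the branched, sialylated glycans carried by orosomucoid passed the test in a share near that of all genes. Of 20 listed genes 16 were tested; 4 rose, 2 fell and 10 missed the threshold, beside 19.5% of all tested genes higher and 25.0% lower, with a median log2 change of 0.15. Without SAP 14, 7 rose and 1 fell, and 1 fell also without SAP 10 or any of control 3 to 7. B4galt1, the main galactosyltransferase of N-glycan antennae, rose from 10.8 ± 1.03 to 29.8 ± 5.42 TPM (SD, n = 6 each; limma adjusted p = 7.20e-07), and Nans, the sialic acid synthase, from 14.8 ± 0.939 to 40.6 ± 10.9 TPM (limma adjusted p = 5.14e-06). The branching enzyme gene Mgat2 rose by 0.37, and Mgat4b, which starts an additional branch, fell by 0.36. In the 7 libraries of high Xist neither passed (Mgat2 0.36, limma adjusted p = 0.0566; Mgat4b -0.21, limma adjusted p = 0.0900). St6gal1, the liver's main alpha-2,6-sialyltransferase, was at 42.9 ± 3.42 and 51.7 ± 14.3 TPM and not past the threshold (limma adjusted p = 0.190); SAP 14 alone was at 79.3 TPM.

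Genes of proteins reported to bind orosomucoid were followed in a short list of 5, of which 4 were tested: 1 rose, 2 fell and 1 missed the threshold, beside 19.5% of all tested genes higher and 25.0% lower. Lepr, the leptin receptor gene, rose from 1.11 ± 0.366 to 11.2 ± 4.28 TPM (SD, n = 6 each), a log2 change of 2.45 (limma adjusted p = 3.03e-06), with no overlap (0.50 to 1.63 against 4.97 to 15.9 TPM). The subunits of the asialoglycoprotein receptor, by which hepatocytes take up desialylated orosomucoid, fell slightly: Asgr2 by 0.52 (193 ± 6.65 to 137 ± 25.2 TPM), and Asgr1 by 0.20 (606 ± 13.8 to 529.5 ± 49.4 TPM), which came to 0.03 with quantile normalization and was then not past the threshold (limma adjusted p = 0.651). The Asgr1 call was kept in 18 of 22 alternatives and lost in the 7 libraries of high Xist (Asgr1 -0.15, limma adjusted p = 0.142). Asgr2 was not past it with quantile normalization either (-0.18, limma adjusted p = 0.122). Itpr2, a calcium channel gene of the endoplasmic reticulum, was at 4.87 ± 1.15 and 4.55 ± 0.559 TPM and not past the threshold.

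Of the 3 nearest protein-coding genes on each side of the cluster, none changed on the scale of Orm1 or Orm2. Upstream, Col27a1, a fibrillar collagen gene ending 9569 bases before the cluster, was at 2.14 ± 0.405 and 2.51 ± 0.834 TPM (SD, n = 6 each; limma adjusted p = 0.499), though it rose among the 7 libraries with Xist of at least 30 TPM (0.44, limma adjusted p = 0.0323). The kinesin gene Kif12 reached at most 0.31 TPM, and Ambp is given above. Downstream, Akna, which encodes an AT-hook protein and ends on the opposite strand 1247 bases past Orm2, was at most 0.91 TPM, and Whrn, a scaffold protein gene, at most 0.32 TPM. Atp6v1g1, a proton pump subunit gene, was at 59.2 ± 5.80 and 68.4 ± 8.44 TPM and not past the threshold (limma adjusted p = 0.0811; 0.00163 with quantile normalization).

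Markers of the cells that could supply orosomucoid RNA moved as follows, and their part in the changes above was not tested. The summed level of 6 hepatocyte markers was 95947 to 106859 TPM in controls and 51937 to 68012 TPM in SAP. Alb, the largest part of it, fell from a mean of 65029 to 27673 TPM. Of the 6, 1 rose (Apoa1), 3 fell (Alb, Ttr and Serpina1a) and 2 missed the threshold. Those 2 were Apob and Trf, the latter at means of 15662 and 15629 TPM. Marker counts here stand beside 19.5% of all tested genes higher and 25.0% lower. Neutrophils, whose precursors store orosomucoid in granules, were followed with 10 markers that summed to 5.04 to 19.6 TPM in controls and 35.3 to 109.9 TPM in SAP. S100a8 and S100a9 rose, by 2.93 and 3.13, and made up most of the SAP sum (SAP means of 25.8 and 46.8 TPM). Retnlg, at 0 to 0.90 TPM in controls and 1.15 to 4.51 TPM in SAP, passed the filter on low values through the SAP livers alone. The untested genes Mpo, Elane, Ltf, Camp and Ngp stayed at or under 1.65 TPM in every library. Mmp8, also untested, was at 0 to 0.10 TPM in controls and 0.35 to 0.68 TPM in SAP. For the untested Cxcr2 the ranges were 0.04 to 0.13 and 0.29 to 0.89 TPM. The 4 monocyte markers summed to 9.21 to 14.5 and 34.9 to 49.0 TPM, most of it Plac8 (means of 10.7 and 38.7 TPM). Ly6c2 and Ccr2 were too low to be tested, at most 1.89 and 0.67 TPM, and overlapped between the groups. Of the tested monocyte markers Plac8 rose by 1.77, and Itgam, at 0.12 to 0.52 and 2.49 to 5.49 TPM, passed the filter through the SAP livers alone. The 6 Kupffer cell markers summed to 104 to 171 and 96.5 to 229 TPM, a sum in which opposite changes were mixed. Marco rose, from a mean of 0.975 to 44.9 TPM. The 3 that fell were Clec4f, Timd4 and Vsig4, with log2 changes of -0.69, -0.59 and -0.72. The sum does not show their fall. The 2 that missed the threshold were Cd5l (-0.30) and Adgre1 (0.43). Adipocyte markers summed to 12.6 to 17.3 and 25.7 to 43.5 TPM. Nearly all of this was Fabp4 (means of 15.1 and 33.7 TPM), the 1 tested, which rose. The 4 untested ones reached at most 1.05 TPM, and Adipoq among them at most 0.63 TPM. The 7 pancreatic acinar markers summed to 0.58 to 11.8 TPM in controls (median 1.13 TPM) and 0.51 to 1.14 TPM in SAP (median 0.795 TPM).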

How the data were processed

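Liver RNA of 6 control and 6 SAP samples was extracted from frozen tissue with Trizol and made into Illumina libraries, per the labels' protocols. The deposited values were taken to be TPM because each of the 12 columns summed to between 993412 and 995793; no header or label names the unit. The authors' tools in the submitters' processing notes include edgeR, whose role is not stated. Aligner, build and annotation: not given in the sources used here; 0 sample columns were left out.

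Of 55487 rows, 120 repeated a symbol, and the row with the highest median was kept. Genes reaching 1 TPM in 6 or more libraries were fitted with limma 3.58.1 (R 4.3.3) with a trend on log2(TPM + 1), with the group as the only term, and p-values were adjusted with Benjamini-Hochberg over 11335 genes at 0.05. Pair ratios and correlations were tested by exact two-sided permutation (numpy 2.4.6). Sequences were aligned with Biopython 1.88, and figures drawn with matplotlib 3.10.9.

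Named genes were the members, the 5 closest profiles of each, the 3 nearest coding genes on each side, the 4 smallest adjusted p of each list and a fixed set of regulators, carriers and receptors; other list members are counted only, or named as examples chosen after their values were seen. The members and all lists were chosen with earlier results of these data known. Alternatives were a pseudocount of 0.1, no filter, a filter on the mean (5 TPM or more), TMM-like scaling (trimming 30% of ratios and 5% of levels), quantile normalization, limma without trend or robust, the Xist split as a term, the libraries with Xist of at least 30 TPM alone, all without SAP 14 and control 5, and each library left out. Alternatives for counts do not apply to TPM. In data simulated with the level and spread of each gene (11335 genes), the fit recovered 65 of 66 genes given a log2 shift of 2, 65 of 67 given 1 and 40 of 67 given 0.5, with 12 false calls among 182. The simulated noise was independent between genes, held no Xist split, and far fewer genes were changed than passed in the real fit. These rates therefore need not hold for the real libraries.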

Additional observations from a re-analysis of the deposited data

Results flagged for a closer look

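A value that stood apart from the other 5 libraries of its group was looked for in 112 sets of 6 values, and 9 were found; chance gives about 1 in 20. The only one in an orosomucoid gene was Orm3 in control 5, at 7.38 TPM below the next value of 11.95 TPM; the same library had the low Xist value among controls (10.15 TPM, next 49.07 TPM). SAP 14 had the highest St6gal1 (79.29 TPM) and Derl3 (226.91 TPM) and the lowest Asgr2 (88.98 TPM) of the SAP group. SAP 10 had the highest Il6st (41.27 TPM) and Marco (76.63 TPM). SAP 12 had the highest Cebpa (159.87 TPM) and the lowest Cog8 (10.8 TPM).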

How the results depend on the processing

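The changes of Orm1 and Orm2 passed the test in the same direction under all 22 alternatives, with log2 changes of 3.46 to 3.71 and 5.15 to 5.57. Orm3 passed under 21 of 22 (0.34 to 0.76) and missed the threshold with the 7 libraries of high Xist alone (0.34, limma adjusted p = 0.0718). The 3 pair differences kept their direction and side of the threshold under all 16 alternatives. The summed share in SAP was 2.69% when acute-phase list and member TPM were taken out of the total. With the 7 libraries of high Xist 1829 genes in all were lower in SAP, against 2832. The balance of directions also turned: the main fit had 2212 higher and 2832 lower. TMM-like scaling gave 2784 and 2734, quantile normalization 2950 and 2591, the Xist split as a term 2324 and 2197, and the high Xist libraries 2041 and 1829. In the other alternatives more genes were lower than higher. The regulator list had 3 genes lower in place of 5 with no filter, with the Xist split as a term, and without control 3, 4 or 6. In the N-glycan list 1 gene in place of 2 was lower under 15 alternatives, SAP 14 and control 3, 4, 5, 6 or 7 left out among them. The sign of the Nr3c1 difference, never past the threshold, turned positive with TMM-like scaling (0.028), quantile normalization (0.0032), the Xist split as a term (0.026), the high Xist libraries (0.14), without SAP 14 and control 5 (0.091), without SAP 14 (0.075) and without control 7 (0.0041); with 1 library left out it ran from -0.079 to 0.075. Fkbp5 (0.10) and Asgr1 (0.031) turned positive with quantile normalization and Itpr2 (0.020) without control 8 (-0.12 to 0.020 over libraries left out), none of them past the threshold there. Fkbp5 passed the threshold as lower in the 7 libraries of high Xist (-0.42, limma adjusted p = 0.0485) and Cebpa as lower without SAP 12 (-0.46, limma adjusted p = 0.00744); both missed it in the other 21 alternatives. In the 7 libraries of high Xist Il6ra, Asgr1, Mgat2 and Mgat4b lost their calls and Col27a1 gained one. The cause of these shifts was not tested. No paired analysis was possible because the groups share no replicate number. Depth is unknown in TPM, so how precisely low genes such as Orm3 and Gm11212 were counted cannot be given.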
